A study of Mus musculus with 5 samples.

Results

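The immediate early response genes examined here are Fos, Fosb, Jun, Junb, Egr1, Egr2, Egr3, Ier2, Atf3 and Nr4a1, 10 of the 28666 genes in the count table, chosen by name and not by their values. RNA-seq was carried out on whole uteri of pseudopregnant ICR females, an outbred mouse stock, aged 6 to 8 weeks and collected, per the labels, 3.5 days after caging. The females had been caged with ligated (vasectomized) C57BL/6 males, whose ejaculate carries seminal plasma (SP) without sperm, so that no embryo of their own was present. The aged-SP group, mated with old males, comprised 2 uteri (replicates 1 and 4), and the young-SP group, mated with young males, comprised 3 uteri (replicates 1, 2 and 4). No unmated group is among these samples, and since the labels do not state the number of females or cages behind a library, p-values measure only the spread between these samples.

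Immediate early genes are transcribed within minutes of a signal from pre-existing transcription factors, without new protein synthesis, and their mRNAs are short-lived. Growth factors and hormones switch them on through ERK and other kinases, which act on the serum response factor with its Elk partners and on CREB. Fos and Jun proteins pair to form AP-1, Egr proteins are zinc finger factors, Nr4a1 is an orphan nuclear receptor, and Atf3 and Ier2 respond to stress and mitogens. In the rodent uterus estrogen is a classical inducer of Fos, Jun and Egr1, and handling, warming or loss of blood supply during dissection is a known inducer of the same genes in many tissues.

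Total counts lay between 15071914 and 16728601 per library, and mitochondrial genes took 3.55% to 4.45% of them. Defining markers of uterine epithelium, stroma and smooth muscle were all detected, with summed levels of 727 to 1482, 5810 to 10464 and 8502 to 13535 CPM (read counts scaled to the library total after TMM normalization), whereas the 3 adipose markers in the table summed to at most 1.80 CPM. In some estrogen-responsive genes, Ltf and Lcn2 among them, the young-SP replicate 1 uterus stood with the aged-SP uteri and apart from the other young-SP uteri. Ltf, which encodes lactoferrin, for example reached 2708 and 4330 CPM in the aged-SP uteri, 3632 CPM in young-SP replicate 1, and 28.3 and 394 CPM in young-SP replicates 2 and 4. In others, such as Greb1 and Igf1, it stood with the young-SP uteri. The fold changes of the 10 genes are therefore also given without young-SP replicate 1. Whole uteri were sequenced, so fewer cells of a type and less RNA per cell cannot be told apart.

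All 10 genes were detected in all 5 uteri and passed the filter on low counts, and none was called different between the groups. A gene was called at an adjusted p under 0.05 with an absolute log2 fold change over 1 in edgeR's quasi-likelihood test, which called 0.147% of the 17013 tested genes. At an unadjusted p under 0.05 the test picked 1 of the 10 genes, Atf3, against 19% of all tested genes. With DESeq2, which called 3.6% of its 17536 tested genes, 0 of the 10 were called and 2, Atf3 and Jun, had an unadjusted p under 0.05. The groups did not overlap for 2 of the 10 genes, Jun and Atf3, both higher in the aged-SP uteri. Over all tested genes 38.8% did not overlap and 19.5% had both aged-SP uteri on top, so the latter count was near its background and the former below it. The median log2 fold change of the 10 genes, aged-SP over young-SP, was 0.30, with 8 positive and 2 negative, beside 0.01 over all tested genes. The median and the tally rested on 1 library, since without aged-SP replicate 1 the median was −0.20 and 4 of the 10 were positive. It was 0.11 without young-SP replicate 1, 0.57 when young-SP replicate 4 and 0.51 when aged-SP replicate 4 was left out. The variation of these genes between uteri of the same group is described after the single genes.

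**Figure D1:**
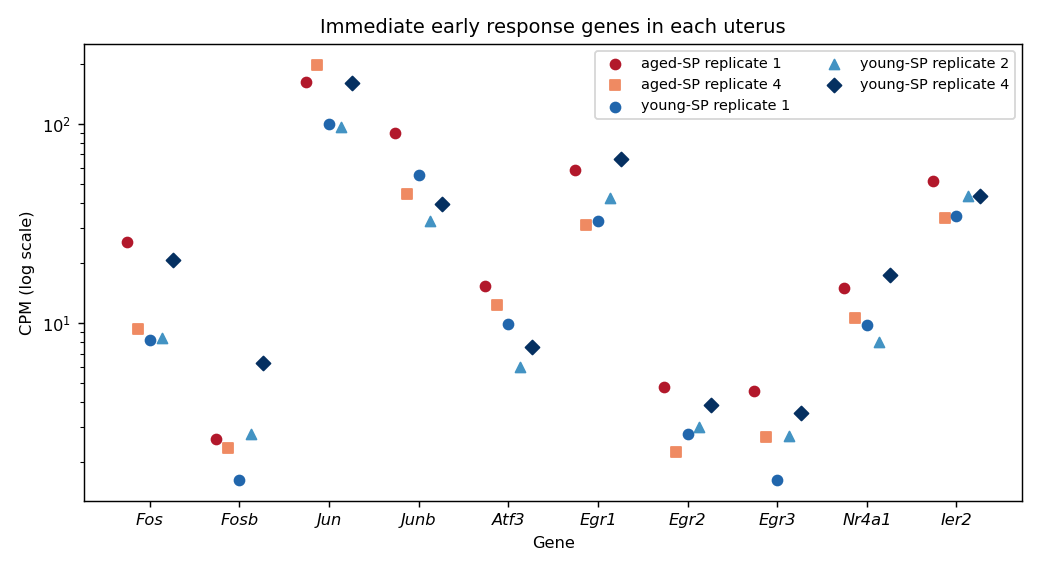
Level of each of the 10 immediate early response genes in each uterus, in CPM on a logarithmic axis, with 1 point per library. The aged-SP points lie above all young-SP points for Jun and Atf3, and for Fos the aged-SP replicate 1 and young-SP replicate 4 points (25.5 and 20.6 CPM) lie apart from the other three.

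Fos and Fosb encode the Fos proteins, which need a Jun partner to bind DNA. Fos (ENSMUSG00000021250, chr12:85473890-85477273, plus strand, GRCm38) measured 25.5 and 9.34 CPM in aged-SP replicates 1 and 4, and 8.19, 8.39 and 20.6 CPM in young-SP replicates 1, 2 and 4. One uterus of each group was thus more than 2-fold above the remaining ones, and the groups overlapped. The log2 fold change of Fos was 0.49 with a standard error (SE) of 0.59 (edgeR, adjusted p = 0.688). It was −0.41 without aged-SP replicate 1 and 1.04 without aged-SP replicate 4, so its direction rested on 1 library. Fosb (ENSMUSG00000003545, chr7:19302696-19310051, minus strand) was scarce, at 2.6 and 2.37 CPM in the aged-SP uteri and 1.63, 2.78 and 6.27 CPM in the young-SP uteri. Young-SP replicate 4 was the highest for Fosb by more than 2-fold, from 94 counts with an exact Poisson 95% interval of 76.0 to 115 that covers counting error only. Its log2 fold change of −0.51 (SE 0.59, edgeR, adjusted p = 0.675) was 0.16 without that uterus.

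Jun and Junb encode the partners that complete AP-1, Jun being a strong activator and Junb a weaker one. Jun (ENSMUSG00000052684, chr4:95049034-95052222, minus strand, 1 exon) stood at 162 and 197 CPM in the aged-SP uteri and at 99.5, 96.2 and 160 CPM in the young-SP uteri. The aged-SP uteri were both higher, but young-SP replicate 4 came close to aged-SP replicate 1. The log2 fold change of Jun was 0.60 (SE 0.25), with an unadjusted p of 0.0574 and an adjusted p of 0.28 in edgeR. It stayed between 0.45 and 0.87 when any single library was left out and was 0.47 without young-SP replicate 1. Junb (ENSMUSG00000052837, chr8:84974484-84978718, minus strand) measured 89.8 and 44.5 CPM in the aged-SP uteri, against 55.2, 32.4 and 39.3 CPM in the young-SP uteri. Aged-SP replicate 1 was the highest and the other aged-SP uterus lay within the young-SP range. The log2 fold change of Junb was 0.67 (SE 0.35, edgeR, adjusted p = 0.37) and fell to 0.07 without aged-SP replicate 1.

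Overlapping transcripts limit the AP-1 values slightly. In GENCODE M21, 232 exon bases of Jun (7.28%) coincide with the antisense RNA Junos, and 173 exon bases of Junb (7.52%) coincide with Prdx2 on the opposite strand. The strand setting of the counting is not given in the sources used here, and if strand was not used, reads from these stretches cannot be assigned to either partner. The other 8 genes share no exon bases with another gene in that annotation.

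Atf3 encodes a stress-responsive factor of the CREB and ATF family that can pair with Jun. Atf3 (ENSMUSG00000026628, chr1:191170296-191218039, minus strand) was at 15.2 and 12.3 CPM in the aged-SP uteri and at 9.82, 5.97 and 7.54 CPM in the young-SP uteri. Both aged-SP uteri were above all young-SP uteri. Its log2 fold change of 0.83 (SE 0.25) was the largest of the 10, with an unadjusted p of 0.0193 that did not survive adjustment over all genes (edgeR, adjusted p = 0.184). DESeq2 gave an adjusted p of 0.0806. Leaving out single libraries moved the value between 0.66 and 1.02, the latter without young-SP replicate 1 (edgeR, adjusted p = 0.0783).

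Egr1, Egr2 and Egr3 encode zinc finger factors that bind the same GC-rich site, and in females Egr1 is required for pituitary luteinizing hormone and hence for fertility. Egr1 (ENSMUSG00000038418, chr18:34859823-34864984, plus strand) measured 58.2 and 30.9 CPM in the aged-SP uteri and 32.5, 42.5 and 66.1 CPM in the young-SP uteri. The highest and the lowest value were thus a young-SP and an aged-SP uterus, and the remaining values lay between them without regard to group. The log2 fold change of Egr1 was −0.08 (SE 0.39, edgeR, adjusted p = 0.933), and it ranged from −0.61 to 0.31 when single libraries were left out.

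Egr2 (ENSMUSG00000037868, chr10:67535475-67542188, plus strand) was at 4.78 and 2.24 CPM in the aged-SP uteri and at 2.75, 3.01 and 3.87 CPM in the young-SP uteri. Here the aged-SP uteri were the highest and the lowest of the 5. Egr3 (ENSMUSG00000033730, chr14:70077203-70082614, plus strand) was at 4.53 and 2.69 CPM in the aged-SP uteri and 1.63, 2.72 and 3.54 CPM in the young-SP uteri. Again aged-SP replicate 1 was on top, and the groups overlapped. The log2 fold changes were 0.13 (SE 0.39) for Egr2 and 0.46 (SE 0.42) for Egr3, with adjusted p values of 0.886 and 0.589 in edgeR. Without aged-SP replicate 1 they were −0.52 and 0.03. These were low counts, 35 to 79 per library for Egr2 and 26 to 75 for Egr3. The corepressors Nab1 and Nab2, through which Egr proteins are held in check, had log2 fold changes of −0.23 and 0.30, and neither passed an unadjusted p of 0.05 in edgeR.

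Nr4a1 encodes an orphan nuclear receptor whose activity is set mainly by its amount. Nr4a1 (ENSMUSG00000023034, chr15:101266846-101274792, plus strand, as listed by the authors) was at 14.9 and 10.6 CPM in the aged-SP uteri and at 9.76, 7.98 and 17.3 CPM in the young-SP uteri. The same uteri were on top as for Fos and Egr1, young-SP replicate 4 and aged-SP replicate 1. Its log2 fold change was 0.13 (SE 0.37, edgeR, adjusted p = 0.88).

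Ier2, a small nuclear protein gene of 1 exon (ENSMUSG00000053560, chr8:84661331-84662852, minus strand), was the steadiest of the 10. It measured 51.2 and 33.4 CPM in the aged-SP uteri and 34.3, 43.1 and 43.3 CPM in the young-SP uteri, a range of 1.53-fold that held both aged-SP uteri at its ends. The log2 fold change of Ier2 was 0.07 (SE 0.21, edgeR, adjusted p = 0.883).

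Without young-SP replicate 1 the log2 fold changes were 0.26 for Fos, −0.87 for Fosb, 0.89 for Junb, −0.30 for Egr1, 0.02 for Egr2, 0.20 for Egr3, 0.01 for Nr4a1 and −0.04 for Ier2. None of the 10 genes was called without it, while the number of all genes called rose to 578.

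**Figure D2:**
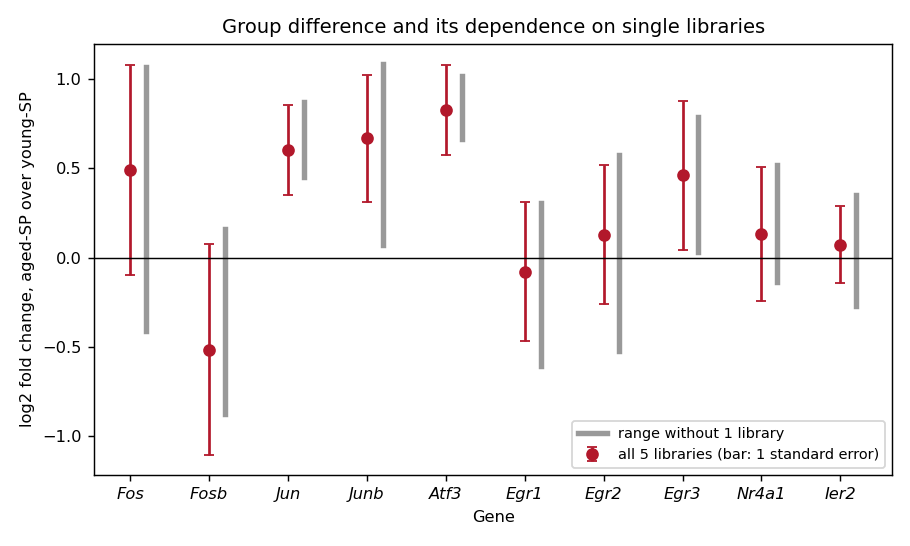
Log2 fold change of each gene, aged-SP over young-SP, with 1 standard error (red) and the range of the value when each library was left out in turn (grey). The grey range crosses 0 for Fos, Fosb, Egr1, Egr2, Nr4a1 and Ier2 and stays above 0 for Jun, Junb, Atf3 and Egr3.

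Levels can be compared between genes only per length, for which the deposited FPKM values (fragments scaled to gene length and library total) were used. Jun was the most abundant of the 10 in every uterus, at 56.0 ± 8.03 FPKM (SD, n = 2) in aged-SP and 37.2 ± 10.9 FPKM (SD, n = 3) in young-SP uteri. Ier2 and Junb followed with means of 26.9 and 22.6 FPKM over the 5 uteri, and they exchanged places between uteri. Egr1 had rank 4 in every uterus, with a mean of 10.2 FPKM. Fos, Nr4a1 and Atf3, at means of 6.10, 4.88 and 4.71 FPKM, took ranks 5 to 7 in differing order, so that no order among them held. Egr2 had rank 8 in every uterus at 0.978 FPKM, and Egr3 and Fosb were the lowest at 0.684 and 0.50 FPKM, with Fosb above Egr3 in young-SP replicate 4.

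The 10 genes varied more between uteri of the same group than most genes did. The SD of log2 CPM within groups had a median of 0.51 for the 10 genes and of 0.20 for all tested genes, and all 10 genes lay above the latter. Fos had a larger SD (0.85) than 94.4% of all tested genes and Fosb (0.77) than 93.1%. Ier2, at the other end with 0.30, still exceeded 65.5%. The highest uterus was more than 2-fold above the lowest for 9 of the 10 genes, up to 3.86-fold for Fosb. These are descriptions over genes that share the same 5 libraries, and part of the SD of the scarce genes Fosb, Egr2 and Egr3 is counting error.

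**Figure D3:**
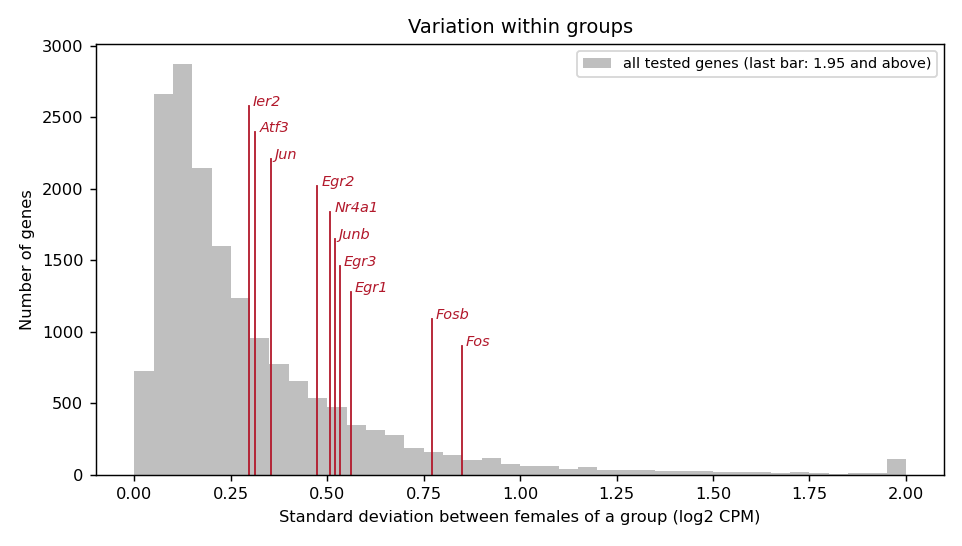
Distribution over the 17013 tested genes of the standard deviation of log2 CPM between females of a group, with each of the 10 genes marked by a red line whose height has no meaning. All 10 lines lie to the right of the median of all genes (0.20), and Fos and Fosb lie farthest out at 0.85 and 0.77.

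The uteri that carried the high values were largely the same for different genes. Aged-SP replicate 1 had the highest level of 6 of the 10 genes, young-SP replicate 4 of 3 (Fosb, Egr1 and Nr4a1), and aged-SP replicate 4 of 1 (Jun). Neither aged-SP replicate 1 nor young-SP replicate 4 was the lowest for any of them. For 6 of the 10 genes, Fos, Egr1, Egr2, Egr3, Nr4a1 and Ier2, these uteri were the 2 highest. The same pair was on top for 838 of the 17013 tested genes (4.93%) and for 6 of 39 other immediate early genes. This pair was picked after the values were seen, it holds 1 uterus of each group, and the count is given as a description. Log2 CPM centered on the mean of the 5 uteri, averaged over the 10 genes, was 0.49 and −0.15 in the aged-SP uteri and −0.36, −0.31 and 0.32 in young-SP replicates 1, 2 and 4.

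**Figure D4:**
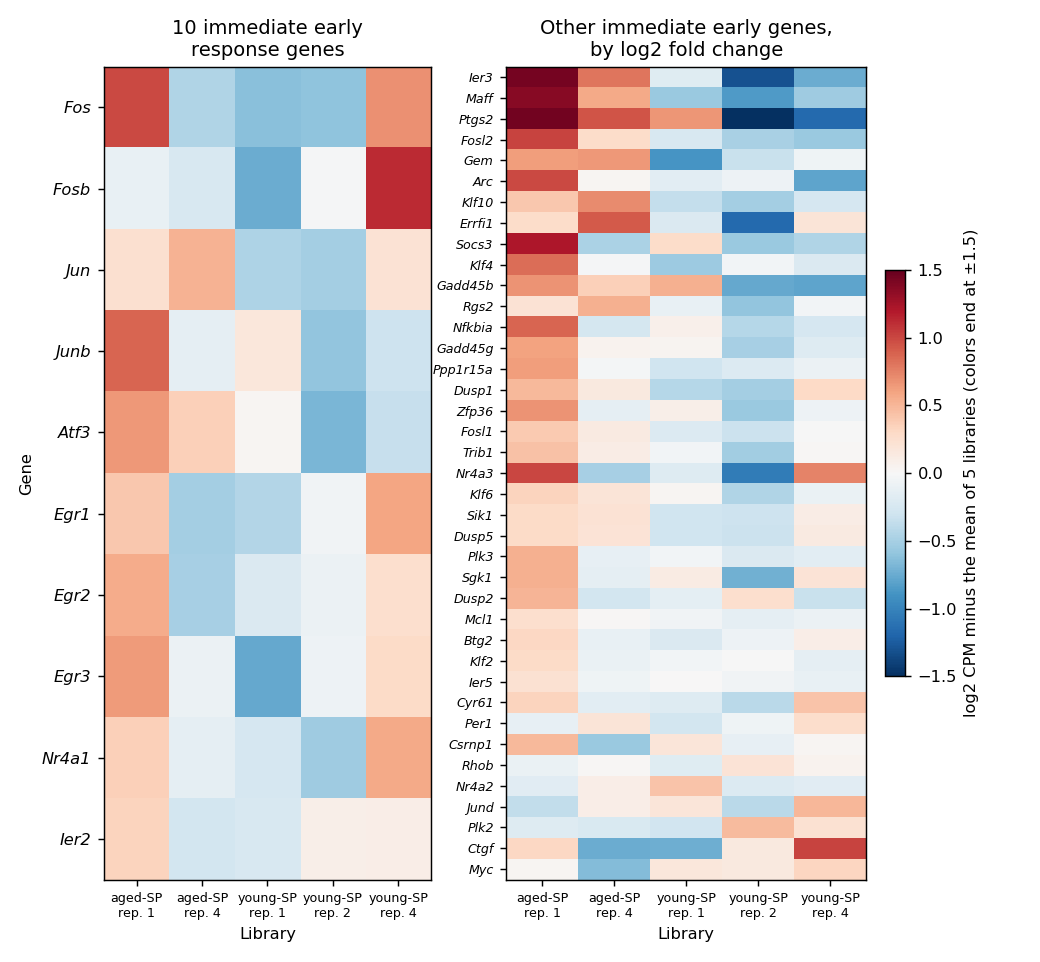
Centered log2 CPM in each library (columns) of the 10 immediate early response genes (left) and of 39 other immediate early genes ordered by log2 fold change (right). Red is above and blue below the mean of the 5 uteri of that gene. On the left the first and last columns, aged-SP replicate 1 and young-SP replicate 4, hold most of the red, and on the right the upper rows are red in both aged-SP columns.

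Profiles of the 10 genes over the uteri were also compared with each other. By the root mean square difference of centered log2 CPM over 5 libraries, the closest pairs were Egr2 with Ier2 (0.18), Egr1 with Egr2 (0.19) and Junb with Atf3 (0.25). Junb and Atf3 differed from the rest in young-SP replicate 4, where they were low (39.3 and 7.54 CPM) while Fos, Fosb, Egr1 and Nr4a1 were high. Outside the 10 genes, the profile nearest to their mean was that of 5830408C22Rik, at a difference of 0.06, followed by Stac, Gm26532, Icos and Pcdhgb7. Nearest to Fos were 1110003F10Rik, S100a7a, Gm26512, Gm37935 and Entpd4b, and nearest to Egr1 were Gcsam, Slc39a1-ps, Gm12207, C2cd4c and Gm37755. All 15 were scarce transcripts, none above 4.29 CPM in any uterus, in which low counts alone give varied profiles, and none of the other immediate early genes was among them.

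The 300-base windows around the start sites of 7 of the 10 genes were available from RefSeq (GRCm38.p6, 250 bases before to 50 bases after the start), namely Fos, Fosb, Jun, Junb, Atf3, Egr2 and Nr4a1. Of these windows 5 are shown, from genes that were high in the same uteri (Fos, Nr4a1, Egr2) and from the genes whose groups did not overlap (Atf3, Jun), to show which of them carry the kinds of site through which the kinases named above act. All are written 5′ to 3′ on the gene's own strand, and capitals mark matches, on either strand, to the CArG box of the serum response factor, the core of the CREB site (TGACG) or the EGR site (GCGNGGGCG). The windows are chr12:85473640-85473939 (plus) for Fos, chr15:101266596-101266895 (plus) for Nr4a1, chr10:67537619-67537918 (plus) for Egr2, chr1:191183284-191183583 (minus) for Atf3 and chr4:95052173-95052472 (minus) for Jun.
Fos: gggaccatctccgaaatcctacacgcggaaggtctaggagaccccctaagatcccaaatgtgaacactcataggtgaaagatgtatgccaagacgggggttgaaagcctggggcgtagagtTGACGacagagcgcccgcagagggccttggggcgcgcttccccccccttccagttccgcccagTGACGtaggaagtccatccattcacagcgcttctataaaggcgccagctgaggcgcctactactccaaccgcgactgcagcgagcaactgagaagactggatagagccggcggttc
Nr4a1: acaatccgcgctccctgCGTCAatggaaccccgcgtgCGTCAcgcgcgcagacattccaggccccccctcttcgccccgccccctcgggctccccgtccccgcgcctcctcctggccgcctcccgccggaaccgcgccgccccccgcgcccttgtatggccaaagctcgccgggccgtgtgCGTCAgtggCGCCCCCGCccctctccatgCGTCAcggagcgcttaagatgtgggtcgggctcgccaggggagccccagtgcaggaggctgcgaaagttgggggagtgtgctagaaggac
Egr2: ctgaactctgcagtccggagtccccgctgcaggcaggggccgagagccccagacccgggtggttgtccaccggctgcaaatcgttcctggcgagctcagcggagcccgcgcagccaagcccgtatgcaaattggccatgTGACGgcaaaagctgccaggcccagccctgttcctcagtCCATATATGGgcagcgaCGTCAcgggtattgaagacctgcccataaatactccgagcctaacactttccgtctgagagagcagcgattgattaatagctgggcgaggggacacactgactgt
Atf3: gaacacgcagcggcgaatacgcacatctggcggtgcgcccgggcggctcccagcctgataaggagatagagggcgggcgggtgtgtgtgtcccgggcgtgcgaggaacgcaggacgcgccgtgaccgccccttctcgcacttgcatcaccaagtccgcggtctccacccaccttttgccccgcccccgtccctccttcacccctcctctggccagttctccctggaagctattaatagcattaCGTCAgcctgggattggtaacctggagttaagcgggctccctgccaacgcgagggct
Jun: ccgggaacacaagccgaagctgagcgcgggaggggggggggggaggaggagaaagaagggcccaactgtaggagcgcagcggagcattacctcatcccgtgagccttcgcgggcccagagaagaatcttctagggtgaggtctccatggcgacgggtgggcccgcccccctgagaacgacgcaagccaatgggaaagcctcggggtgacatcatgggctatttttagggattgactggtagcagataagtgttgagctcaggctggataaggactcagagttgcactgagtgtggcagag

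The CREB core TGACG was found in 6 of the 7 genes, the exception being Jun. The 7 genes have 11 windows, since Egr2 has several, partly overlapping ones. Counted by window, the core was in 8 of these 11 and in 20.8% of all 32851 promoter windows. It occurred 4 times in the Nr4a1 window and 2 times in the Fos window. The CArG box was found in Egr2 alone among the 7 genes, in 4 of the 11 windows, beside 1.63% of all windows. In the Egr2 window shown it was CCATATATGG, from 72 to 63 bases before the start. The EGR site was found in Nr4a1 and Fosb, in 2 of the 11 windows, and in 5.55% of all windows. The full CREB site TGACGTCA (1.79% of all windows), the AP-1 site TGANTCA (7.81%) and the full palindromic estrogen response element (0.07%) were found in none of the 7. A match describes the letters of a window. Variants of these patterns, such as TGACATCA in the Jun window, and sites outside these windows were not searched. The lack of a match therefore does not show that a window lacks such sites.

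The RNA of the signaling proteins upstream of these genes was measured in the same uteri. Of 18 kinases and transcription factors that drive immediate early genes, 0 had an unadjusted p under 0.05 in edgeR. Without overlap 3 of the 18 were higher and 5 lower, beside 38.8% of all tested genes in either direction. The median log2 fold change of the 18 was −0.04. Rps6ka1 (0.38) and Mkl2 (0.18) had the highest and Elk1 (−0.21) and Mapk3 (−0.17) the lowest log2 fold changes. Srf, the serum response factor gene, measured 129 and 124 CPM in the aged-SP uteri and 103, 112 and 133 CPM in the young-SP uteri, and its groups overlapped. Of 9 feedback inhibitors and targets of ERK, Spry1 (0.73) and Spred1 (0.32) were higher at an unadjusted p under 0.05 and 0 were lower. Among all 17013 tested genes 1636 were higher and 1592 lower at that p. None of the 9 was called. Dusp4 had the highest log2 fold change of this list (0.75) and Spry4 and Spry2 the lowest (both −0.18), with a median of 0.30. Aged-SP replicate 1 was the highest uterus for the feedback list (mean centered log2 CPM 0.43), as it was for the 10 genes, but young-SP replicate 4 was not (−0.02).

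Of 40 other immediate early genes 39 were tested (Egr4 was too scarce), 33 had a positive log2 fold change, and the median was 0.44, or 0.16 without aged-SP replicate 1. At an unadjusted p under 0.05, 9 of the 39 were higher and 0 lower in edgeR. Over all 17013 tested genes 1636 were higher and 1592 lower at that p. Without overlap 18 of the 39 were higher and 1, Myc, lower. Thus 46.2% of the 39 had both aged-SP uteri on top, beside 19.5% of all tested genes. None was called by edgeR, whereas DESeq2 called 4, Ier3, Maff, Fosl2 and Gem, all higher in the aged-SP group. Without young-SP replicate 1, 11 had an unadjusted p under 0.05 in edgeR and 3, Ier3, Gadd45b and Ptgs2, were called, and without aged-SP replicate 1 the numbers were 7 and 0. Ier3, a survival gene, measured 59.6 and 38.4 CPM in the aged-SP uteri and 19.4, 8.81 and 13.2 CPM in the young-SP uteri, a log2 fold change of 1.83 (SE 0.36, edgeR, adjusted p = 0.0986). No young-SP value reached either aged-SP value. Maff, a small Maf bZIP protein gene, showed 15.3 and 8.76 against 3.94, 3.19 and 4.01 CPM, a log2 fold change of 1.70 (SE 0.29, edgeR, adjusted p = 0.0829).

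Fosl2, the relative of Fos, was the AP-1 gene with the largest difference. It measured 276 and 164 CPM in the aged-SP uteri and 115, 97.5 and 92.7 CPM in the young-SP uteri, a log2 fold change of 1.11 (SE 0.23, edgeR, adjusted p = 0.107). Unlike Fos it was low in young-SP replicate 4. The remaining AP-1 genes Fosl1 and Jund had log2 fold changes of 0.46 and −0.26, neither at an unadjusted p under 0.05. The other genes at an unadjusted p under 0.05 were Gem (1.03), Klf10 (0.94), Klf4 (0.73), Rgs2 (0.61), Ppp1r15a (0.53) and Klf6 (0.43), and Myc (−0.48) and Ctgf (−0.44) had the lowest log2 fold changes. Of the nearest relatives of Nr4a1, Nr4a3 was highest in aged-SP replicate 1 and young-SP replicate 4 (8.77 and 7.28 CPM, against 2.01 to 3.75 CPM elsewhere) as Nr4a1 was, whereas Nr4a2 was highest in young-SP replicate 1 (6.94 CPM).

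Further bZIP genes encode proteins that can pair with Fos, Jun, Atf3 or Maf proteins. Of these genes, Mafk (0.81), Batf3 (0.71) and Mafg (0.40) had positive log2 fold changes at an unadjusted p under 0.05 in edgeR. That p was passed by 19% of all tested genes in either direction. None of these bZIP genes was called. Batf2 had a log2 fold change of 1.09, and Jdp2 (−0.32) and Batf (−0.05) had the lowest values, none of them at an unadjusted p under 0.05.

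Estrogen action and tissue handling were followed through gene lists measured in the same libraries, and their part in the levels of the 10 genes was not tested. Of 13 tested estrogen receptor and estrogen-responsive genes, 4 were higher and 1 lower at an unadjusted p under 0.05, beside 19% of all tested genes in either direction. The higher ones were Aqp5 (2.97), C3 (2.13), Greb1 (1.82, edgeR, adjusted p = 0.0734) and Esr1 (0.28), and Igf1 (−0.97) was lower. The median was 0.72, but 1.98 without young-SP replicate 1 and 0.32 to 0.56 without any other single uterus, with 0 called by edgeR and 1 by DESeq2. Sprr2b had the lowest log2 fold change (−1.14), which rested on young-SP replicate 1, since it measured 40.9 and 26.4 CPM in the aged-SP uteri, 222 CPM in young-SP replicate 1 and 0 CPM in young-SP replicates 2 and 4. The mean centered log2 CPM of this list was 1.03 and 1.1 in the aged-SP uteri and 1.25, −2.01 and −1.38 in young-SP replicates 1, 2 and 4. Greb1, at 40.9 and 60.2 CPM in the aged-SP uteri and 17.5, 14.8 and 10.6 CPM in the young-SP uteri, did not follow this order, nor did Igf1 and Esr1, for which young-SP replicate 1 stood with the young-SP uteri. Young-SP replicate 1 was the highest uterus for the mean of the estrogen list. For the mean of the 10 genes it was narrowly the lowest, at −0.36 beside −0.31 in young-SP replicate 2. By summed CPM of the 10 genes young-SP replicate 2 was lower, with 245 against 255 CPM. Young-SP replicate 4 was low for the former and high for the latter. These are orders of list means, which single genes of the estrogen list did not share, and estrogen action was not tested. Jun and Atf3 measured 99.5 and 9.82 CPM in young-SP replicate 1, lower than in both aged-SP uteri.

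Of 14 progesterone-responsive genes 10 had an unadjusted p under 0.05 in edgeR, all of them lower in the aged-SP uteri and without overlap. Of all 17013 tested genes 1592 were lower at that p, and 3286 were lower without overlap. Of the 14 progesterone-responsive genes 0 were called by edgeR against 6 by DESeq2. Their median log2 fold change was −0.75, or −1.23 without aged-SP replicate 1, led by Lrp2 (−4.11), Calca (−2.74), Il13ra2 (−2.18), Ihh (−1.78) and Ptch1 (−1.20), followed by Fst (−0.77), Gata2 (−0.74), Hoxa11 (−0.28) and Hand2 (−0.28). Areg had 1 and 0 counts in the aged-SP uteri and 3, 28 and 46 counts in the young-SP uteri, and the median was the same with its fold taken against a floor of 3 counts per library. Hoxa10 (−0.09) and Bmp2 (0.15) had the highest values of this list. Averaged over the list, young-SP replicate 4 was the highest uterus (0.83) and aged-SP replicate 4 the lowest (−1.12), whereas for the 10 genes aged-SP replicate 1 was the highest.

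Heat shock genes rise with heat and proteotoxic stress, and of 12 tested 3 were higher, Hspa1b (0.75), Dnajb1 (0.44) and Bag3 (0.36), and 1 was lower, Hspe1 (−0.53), at an unadjusted p under 0.05. Hspa1a (0.58) and Hspd1 (−0.32) did not pass it. Hspa1b, an inducible Hsp70 gene, measured 109 and 76.9 CPM in the aged-SP uteri and 59.4, 45.5 and 61.2 CPM in the young-SP uteri, without overlap. Among 15 hypoxia genes Bnip3 (0.67) and Ndrg1 (0.42) were higher and Pdk1 (−1.01) and Ldha (−0.65) lower at an unadjusted p under 0.05, with Slc2a1 (0.92) and Pfkfb3 (−0.78) at the ends of the remaining values. These counts, 4 of 12 and 4 of 15, stand beside 19% of all tested genes. None of either list was called by edgeR, and DESeq2 called 0 of the heat shock genes and 1 hypoxia gene, which was lower. The list means of centered log2 CPM lay between −0.16 and 0.10 for heat shock and between −0.12 and 0.14 for hypoxia, against −0.36 to 0.49 for the 10 genes. In neither list were aged-SP replicate 1 and young-SP replicate 4 the 2 highest uteri. Of the heat shock genes 7 had a positive and 5 a negative log2 fold change, and of the hypoxia genes 9 and 6. Differences in opposite directions cancel in part in such means, and the part of tissue handling was not tested.

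**Figure D5:**
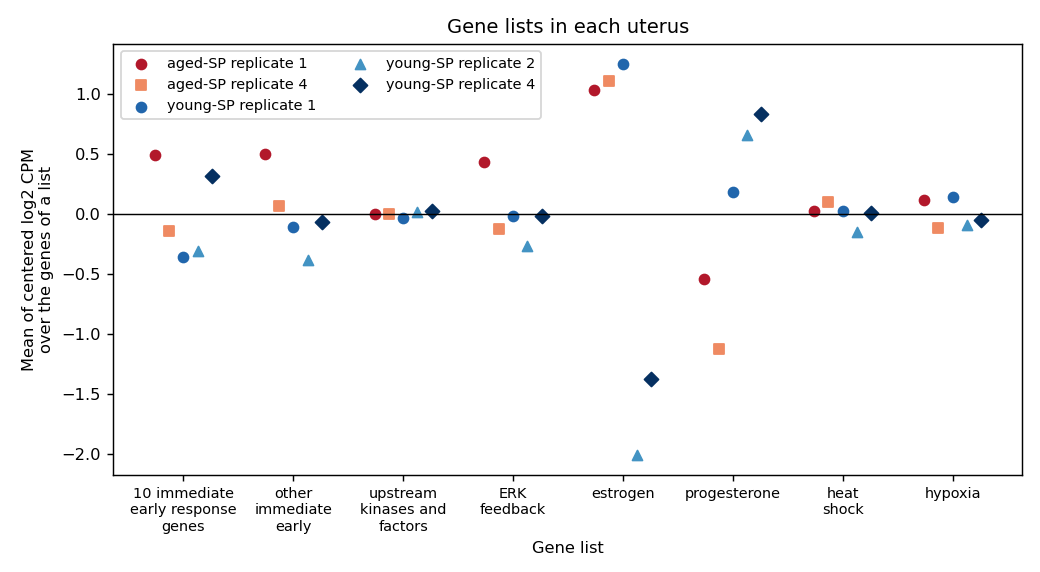
Mean of centered log2 CPM over the tested genes of each list, with 1 point per uterus. The 10 immediate early response genes were highest in aged-SP replicate 1 and young-SP replicate 4 (0.49 and 0.32), whereas the estrogen list was high in both aged-SP uteri and young-SP replicate 1 (1.03 to 1.25) and low in the other young-SP uteri.

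The cell makeup of the uteri, as far as summed markers show it, gave these orders. The 6 smooth muscle markers summed to 8502 and 10826 CPM in the aged-SP uteri and 9304, 8954 and 13535 CPM in the young-SP uteri, so the uteri highest for the 10 genes were the lowest and the highest for muscle. The 6 neutrophil markers summed to 88.2 and 16.4 CPM in the aged-SP uteri and 173, 45.2 and 27.5 CPM in the young-SP uteri, with young-SP replicate 1 on top. The 5 leukocyte markers ranged from 281 to 396 CPM and the 5 macrophage markers from 318 to 610 CPM. Both were highest in young-SP replicate 1 and lowest in young-SP replicate 2. In these uteri the mean of the 10 genes was similar, at −0.36 and −0.31 on the centered log2 scale. Oviduct markers were highest in young-SP replicate 4, with a sum of 242 CPM for 3 genes against 43.6 to 124 CPM in the other uteri, and mesothelial markers likewise with 111 against 41.3 to 62.6 CPM. The part of adjoining tissue in the high Fos, Fosb, Egr1 and Nr4a1 values of that uterus was not tested.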

How the data were processed

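RNA of 5 mouse uteri, 2 of the aged-SP group and 3 of the young-SP group, was analysed. The methods of the study count the day of collection from mating and give a smaller number than the labels, which count from caging. Whether both name the same time cannot be told. A young-SP sample that the study set aside as an outlier in hierarchical clustering was not analysed here. The spread within the young-SP group is therefore that of the samples kept. The authors aligned reads with HISAT2 2.1.0 and deposited an unnormalized count per gene and library (HTSeq 0.6.0 and Bowtie2 2.2.3 are also in the submitters' processing notes), and the genome build and annotation release are not given in the sources used here. The FPKM values deposited by the authors equal these counts divided by gene length and library total, and were used only to compare levels between genes. Columns of the authors' own fold changes and p-values were not used, and 0 further per-sample columns were set aside.

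Genes were filtered with filterByExpr, scaled by TMM (factors 0.990 to 1.02) and tested two-sided with glmQLFit and glmQLFTest of edgeR 4.0.16 in R 4.3.3, with Benjamini-Hochberg adjustment over all 17013 tested genes. Alternatives used DESeq2 1.42.0 and limma 3.58.1. The SE is the one implied by the F statistic. Log2 CPM had a prior count of 2. The common dispersion corresponded to a coefficient of variation of 25.1%. Positions of 9 of the 10 genes equal those of GENCODE M21 on GRCm38; that of Nr4a1 differs. Named genes are the 10 genes, in each related list the 2 highest and the 2 lowest log2 fold changes and any gene with an unadjusted p under 0.05, and the 5 profiles nearest to the mean, Fos and Egr1. An item of the related lists is not reported here. The genes, lists and tests were chosen with earlier results of these data known. Marker lists of T and NK cells, endothelium, erythroid cells, vagina and cervix, ovary and skeletal muscle were also measured. Promoter windows are from RefSeq on GRCm38.p6.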

Additional observations from a re-analysis of the deposited data

How the results depend on the processing

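Of the 10 genes 0 were called with a count minimum of 10 in all uteri or no filter, with size factors of DESeq2 or only library size as scaling, with limma-voom or the Wald test of DESeq2, with the adjusted p alone, with a replicate block, or with any single library left out. Their log2 fold changes kept direction and side of the threshold in 110 of 120 values under alternatives and reversed in 10, with Jun, Junb, Atf3 and Egr3 positive throughout. Leaving out single libraries moved the log2 fold change of Fos from −0.41 to 1.07, of Fosb from −0.87 to 0.16, of Egr1 from −0.61 to 0.31, of Egr2 from −0.52 to 0.57, of Nr4a1 from −0.14 to 0.52 and of Ier2 from −0.27 to 0.35. Without aged-SP replicate 1 the values of Fos, Egr2, Nr4a1 and Ier2 were negative. Their median, also recomputed after seeing the data, was −0.20 without that uterus and 0.11 to 0.57 without any other. The replicate numbers 1 and 4 occur in both groups, and the deviations of same-numbered uteri correlated at 0.152 and 0.136 across genes, but with 2 pairs the uteri share only a number. With the number as a replicate block Nr4a1 was at −0.046 (edgeR, adjusted p = 0.970), 2 of all tested genes were called and 2 of the 10 genes had an unadjusted p under 0.05. That last count was also 2 with DESeq2, limma-voom and no filter on low counts, and 0 to 2 without single libraries. The number of all genes called was 25, but 632 with DESeq2's Wald test, 203 with no filter on low counts, and 1 to 578 without single libraries (1 without aged-SP replicate 1, 578 without young-SP replicate 1). Other immediate early genes called numbered 4 with DESeq2, 2 with no filter (Ier3 and Maff) and 0 to 3 without single libraries, and those at an unadjusted p under 0.05, an alternative chosen after seeing the data, 6 to 15 beside 9 with all libraries. Their median log2 fold change was 0.16 without aged-SP replicate 1. The cause of these shifts was not tested. The median within-group SD of the 10 genes stayed between 0.44 and 0.57. With 2 aged-SP uteri, differences of the size of the spread of Fos or Fosb could be missed, though power was not calculated. The counts of Fosb, Egr2 and Egr3 limit their precision further.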

Other observations

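Summed marker levels not described above ranged over the 5 uteri from 469 to 751 CPM for endothelium, 22.1 to 56.7 CPM for T and NK cells, 79.8 to 216 CPM for erythroid cells, 6.01 to 17.6 CPM for vagina and cervix, 21.5 to 70.9 CPM for ovary and 71.5 to 239 CPM for skeletal muscle. Skeletal muscle markers were lower in both aged-SP uteri (71.5 and 89.2 CPM) than in the young-SP uteri (162, 239 and 235 CPM), mostly through Acta1. Erythroid markers were highest in young-SP replicate 1 and aged-SP replicate 4 (216 and 180 CPM) and lowest in young-SP replicate 2 (79.8 CPM). In all of these uteri the mean of the 10 genes was below 0 on the centered log2 scale.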
